A study of Saccharomyces cerevisiae with 8 samples.

Results

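Nrd1-unterminated transcripts (NUTs) are RNAs of *Saccharomyces cerevisiae* that were annotated because they become longer or more abundant when Nrd1 is taken out of the nucleus. Of the 1291 NUTs in the table, 570 share no base on their own strand with a cryptic unstable transcript (CUT), a stable unannotated transcript (SUT), a small nuclear or nucleolar RNA (sn/snoRNA) or an annotated extension of one (ET). These 570 were chosen from the annotated positions alone and are described here. They fall into 389 NUTs that share no base with an open reading frame transcript (ORF-T) on their strand and 181 that share at least 1. The study describes most ORF-Ts, not all, as protein-coding. For 30 of the 181 the ORF-T that shares most bases is not listed in RefSeq. The remaining 721 NUTs overlap a CUT (464), a SUT (305), an sn/snoRNA (47) or an ET (47), some of them more than 1 class.

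Total RNA was sequenced with strand information from 4 libraries of a wild-type strain (WT) and 4 of a strain without *RRP6* (*rrp6Δ*), which gave reads counted per annotated transcript. The study describes its strains as isogenic to BY4741, a haploid laboratory strain, with the *RRP6* deletion taken from the yeast knockout collection. Both strains were grown in YPD to the same optical density and received no treatment. Each strain is 1 genotype and nothing says that the 4 preparations came from separate clones, so p-values measure the spread between these preparations. Total counts lay between 6904004 and 12666126 per library. *RRP6* itself had between 660 and 1787 counts in WT libraries and between 16 and 60 in *rrp6Δ* libraries, a log2 fold change of -5.37 ± 0.29 (SE, edgeR quasi-likelihood test, adjusted p = 2.24e-06), in the direction of the labels.

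Nrd1 and Nab3 bind short motifs in nascent RNA, and together with the helicase Sen1 they end transcription of many noncoding RNAs near their start. RNAs ended in this way are handed to the TRAMP polyadenylation complex and to the nuclear exosome, of which Rrp6 is a 3′ to 5′ exonuclease subunit. An RNA that the exosome degrades in WT cells is rarely seen there, and accumulates when Rrp6 is lost. Where a NUT lies over an ORF-T on the same strand, a read from the shared bases cannot be assigned to either of them, so the counts of such a NUT can hold mRNA.

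The starts of 4 NUTs that share no base with an ORF-T are printed first: the 3 with the largest rise in *rrp6Δ* and the one with the highest WT level per kilobase. Each line gives the first 150 bases on the NUT's own strand, read from the RefSeq sequence of the R64 build at the deposited coordinates. Capitals mark the Nrd1 motifs GTAA and GTAG and the Nab3 motif TCTT.
NUT1259 (chrXII:576267-576416, minus strand): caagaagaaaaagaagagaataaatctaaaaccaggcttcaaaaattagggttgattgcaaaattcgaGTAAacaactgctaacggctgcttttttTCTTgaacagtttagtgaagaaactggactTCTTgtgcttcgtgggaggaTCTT
NUT0651 (chrXIV:348733-348882, plus strand): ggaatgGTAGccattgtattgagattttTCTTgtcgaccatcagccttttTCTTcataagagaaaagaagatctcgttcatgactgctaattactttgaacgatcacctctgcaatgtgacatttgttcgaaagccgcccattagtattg
NUT0844 (chrII:449190-449339, minus strand): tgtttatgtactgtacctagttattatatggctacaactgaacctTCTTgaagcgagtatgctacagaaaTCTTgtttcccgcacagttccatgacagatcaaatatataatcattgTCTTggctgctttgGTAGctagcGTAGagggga
NUT1427 (chrXV:594258-594407, minus strand): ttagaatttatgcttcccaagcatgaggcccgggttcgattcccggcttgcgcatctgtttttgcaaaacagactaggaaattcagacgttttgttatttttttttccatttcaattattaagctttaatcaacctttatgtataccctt

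The first 150 bases held 1 Nrd1 and 3 Nab3 motifs in NUT1259, 1 and 2 in NUT0651, and 2 and 3 in NUT0844. The start of NUT1427 held none of either, and its first 54 bases are the 3′ part of a glycine tRNA gene of RefSeq, *SUF5*. The next 4 share bases with an ORF-T, the 3 with the largest rise and NUT0103, which fell.
NUT0556 (chrXII:1026761-1026910, plus strand): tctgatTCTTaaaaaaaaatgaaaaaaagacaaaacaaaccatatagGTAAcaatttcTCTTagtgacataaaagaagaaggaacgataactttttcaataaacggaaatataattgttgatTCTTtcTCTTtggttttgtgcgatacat
NUT0960 (chrV:117430-117579, minus strand): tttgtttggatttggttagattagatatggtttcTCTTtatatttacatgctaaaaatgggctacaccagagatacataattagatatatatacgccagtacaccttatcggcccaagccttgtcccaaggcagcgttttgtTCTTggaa
NUT0460 (chrXI:382680-382829, plus strand): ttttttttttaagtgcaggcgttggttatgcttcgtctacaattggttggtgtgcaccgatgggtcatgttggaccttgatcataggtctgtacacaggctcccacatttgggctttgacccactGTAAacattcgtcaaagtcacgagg
NUT0103 (chrIV:322672-322821, plus strand): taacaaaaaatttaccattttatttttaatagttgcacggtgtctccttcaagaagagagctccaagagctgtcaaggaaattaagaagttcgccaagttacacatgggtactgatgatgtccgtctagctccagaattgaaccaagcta

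The first 150 bases of NUT0556 held 1 Nrd1 and 4 Nab3 motifs, those of NUT0960 held 2 Nab3 motifs and those of NUT0460 held 1 Nrd1 motif. The start of NUT0103 lies within the ribosomal protein gene *RPL31A* and held none.

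Most NUTs free of any ORF-T were more abundant in *rrp6Δ*. To be called, a transcript had to differ by 1.5-fold or more with a p-value under 0.05 and an adjusted p no higher than 0.1 in edgeR's quasi-likelihood test of all transcripts. By this rule 265 of the 389 were up-regulated (68.1%) and 0 were down-regulated. This fit did not pair libraries by replicate number, and with that number as a block 304 were up-regulated and 0 down-regulated. DESeq2 and edgeR's exact test also called 0 down-regulated, and 0 of the 389 were lower at an unadjusted p under 0.05. Of all transcripts tested, 25.6% were called up-regulated and 9.61% down-regulated. That background includes 1236 antisense rows, which per the study's methods entered the table because they changed in *rrp6Δ*. For ORF-Ts the shares called up-regulated and down-regulated were 2.09% and 14.3%.

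On the log2 scale, the 389 NUTs had a median fold change of 1.35, with quartiles of 0.90 and 1.83 and extremes of -0.71 and 3.89, and 380 of them were above 0. In 207 each *rrp6Δ* library was above each WT library, and in 0 each was below. Over the whole table those shares were 21.9% and 9.05%. The median level per kilobase was 0.563 normalized counts in WT and 1.63 in *rrp6Δ*, where a normalized count is a CPM value on the TMM-scaled library size. For ORF-Ts the medians per kilobase were 21.9 and 17.9. Reads from NUTs free of ORF-Ts were few: a WT library held a median of 8 reads for such a NUT, and 20 of the 389 had 3 counts or fewer in each WT library. All 20 of these were called up-regulated, a group in which a call needed the *rrp6Δ* libraries to be high.

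The NUTs that share bases with an ORF-T changed less, and few were down-regulated. Of the 181, 72 were up-regulated (39.8%), 4 were down-regulated (2.21%) and 105 were not called, while 85 of the 181 had an unadjusted p under 0.05. Down-regulated shares were 9.61% for all transcripts and 14.3% for ORF-Ts. Their median log2 fold change was 0.52, and 44 were below 0. In 60 each *rrp6Δ* library was above each WT library and in 4 each was below. The median level per kilobase was 3.13 normalized counts in WT and 4.76 in *rrp6Δ*. Summed over the 181 NUTs, the normalized counts of a library were between 2663 and 3464 in WT and between 3252 and 3809 in *rrp6Δ*, ranges that overlap. Over the 389 NUTs free of ORF-Ts the sums were between 605 and 976 in WT and between 1381 and 1772 in *rrp6Δ*, ranges that do not.

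**Figure D1:**
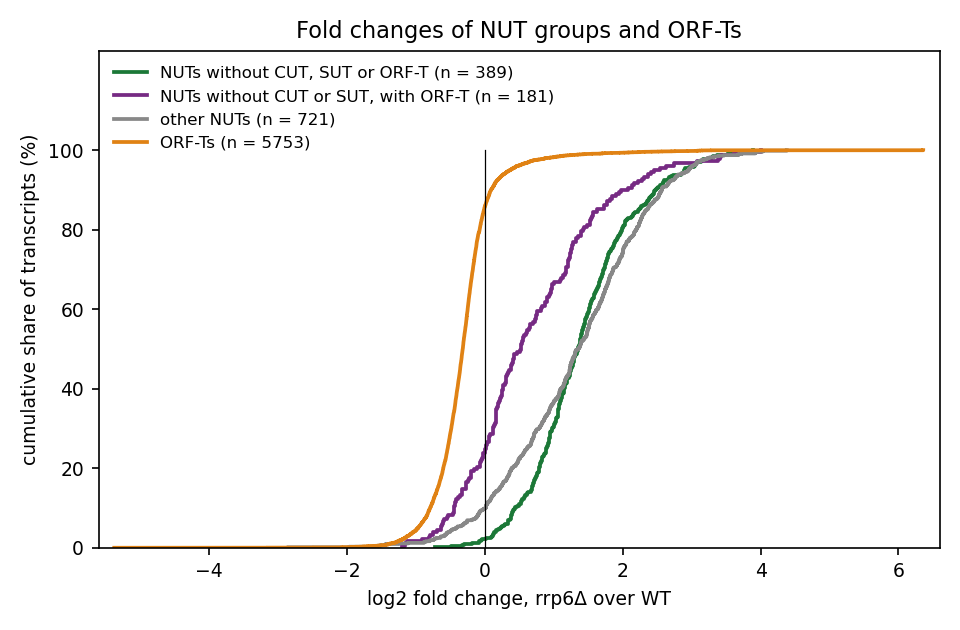
Cumulative share of transcripts (%) against the log2 fold change of *rrp6Δ* over WT, for the 389 NUTs without a CUT, SUT or ORF-T on their strand, the 181 with an ORF-T, the 721 other NUTs and 5753 ORF-Ts. The curve of the 389 crosses the middle at 1.35, that of the 181 at 0.52 and that of the ORF-Ts at -0.32.

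Set beside the other 721 NUTs, those free of ORF-Ts had nearly the same share of calls and the same median. The 721 were not split by ORF-T overlap, so the 2 sets are not alike in this respect. All 570 NUTs, with and without an ORF-T, had 337 up-regulated (59.1%) and a median of 1.17 on the log2 scale. Of the 721, 498 were up-regulated (69.1%) and 14 down-regulated, with a group median of 1.35 on the log2 scale. The 464 that overlap a CUT were called up-regulated in 381 cases with a median of 1.74, and the 233 that overlap a SUT without a CUT, sn/snoRNA or ET in 117 cases with a median of 0.82. The 389 lie between these groups. Median WT levels per kilobase were 1.10 normalized counts in the CUT group and 2.49 in the SUT group, both higher than the 0.563 of the 389. NUTs with a same-strand ORF-T were left in the CUT and SUT groups, whose counts can therefore hold mRNA. Over all 570 NUTs the median WT level per kilobase was 0.876. These shares and medians are descriptions, and no test was made of the differences between groups of NUTs.

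The scaling of the libraries bears on levels near no change. The ORF-Ts had a median log2 fold change of -0.32 with TMM factors over all transcripts, and -0.02 with TMM factors from ORF-Ts only. That scaling moved the median of all transcripts up by 0.31, and library totals alone moved it by 0.36. The whole table then held 2978 up-regulated and 191 down-regulated transcripts in place of 2570 and 966. Among the 389 NUTs 310 were up-regulated with ORF-T scaling and 325 with library totals, and among the 181 the numbers were 93 and 94. Fold changes below are those of TMM over all transcripts.

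By name are described the 8 largest rises among NUTs free of ORF-Ts whose libraries did not overlap between strains. NUT1259 runs for 2346 bases opposite the *MSC3* transcript (chrXII:574071-576416, minus strand). It had 1, 2, 1 and 0 counts in the WT libraries and 29, 25, 25 and 16 in *rrp6Δ*. The lowest *rrp6Δ* library was thus far above the highest WT library, and the log2 fold change was 3.89 ± 0.56 (SE, edgeR, adjusted p = 0.000542).

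NUT0844 covers nearly all of the transcript of *SIF2*, a subunit of the Set3 histone deacetylase complex, from the opposite strand (chrII:447398-449339). Its WT counts were 2, 1, 1 and 1 and its *rrp6Δ* counts 54, 15, 35 and 16. The log2 fold change was 3.84 ± 0.51 (SE, edgeR, adjusted p = 0.000345). NUT0651 lies opposite *PGA2*, an essential gene, and reaches into *ALF1*, which encodes a tubulin folding factor (chrXIV:348733-349873, plus strand). WT libraries held 1, 1, 0 and 1 of its reads, against 14, 13, 24 and 19 for *rrp6Δ*. With only 3 WT counts in all, its ratio of counts per library size was 15.7, with an exact 95% interval of 5.17 to 78.2 that covers counting error only.

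NUT1315 was the most abundant of the 8 in both strains. It lies within the span of *RPL36A*, a gene of the large ribosomal subunit, on the opposite strand (chrXIII:651177-651994). WT libraries held 16, 11, 13 and 6 of its reads, against 176, 215, 202 and 63 for *rrp6Δ*, a log2 fold change of 3.29 ± 0.43 (SE, edgeR, adjusted p = 0.000301). Its normalized count was 1.38 ± 0.437 in WT and 13.6 ± 6.94 in *rrp6Δ* (mean ± SD, n = 4). The ORF-T of *RPL36A* changed by -0.73 on the log2 scale and was called down-regulated (edgeR, adjusted p = 0.0253), but not with ORF-T scaling, where it changed by -0.43 with an adjusted p of 0.166.

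NUT0368 lies opposite *PKP1*, a mitochondrial kinase that acts on pyruvate dehydrogenase (chrIX:275094-276431, plus strand). Its counts were 3, 5, 1 and 0 in WT and 58, 34, 27 and 20 in *rrp6Δ*. *PKP1* changed by -0.68 and was called down-regulated, and with ORF-T scaling it changed by -0.38 and was not called. The opposite ORF-Ts of the other NUTs in this set, *MSC3*, *PGA2*, *ALF1*, *SIF2*, *YEN1* and *AVO1*, were not called, with log2 fold changes between -0.75 and 0.17. The lowest was that of *MSC3*, which missed the call by its adjusted p of 0.1004 alone (edgeR).

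NUT0970 (chrV:233095-234848, minus strand) lies opposite *YEN1*, a Holliday junction resolvase, with 0, 2, 1 and 1 reads in the WT libraries and 28, 3, 22 and 25 in those of *rrp6Δ*. Its second *rrp6Δ* library, with 3 counts, was near the WT level. NUT1398 (chrXV:183664-185253, minus strand) lies opposite *AVO1*, a subunit of the TORC2 kinase complex, with 1, 4, 1 and 1 reads in the WT libraries and 12, 18, 52 and 28 in those of *rrp6Δ*. NUT0288 (chrVII:766879-767451, plus strand) lies between genes with no ORF-T on either strand, with 2, 5, 1 and 0 reads in the WT libraries and 22, 38, 54 and 23 in those of *rrp6Δ*. The log2 fold changes of NUT0970, NUT1398 and NUT0288 were 3.53, 3.36 and 3.52.

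**Figure D2:**
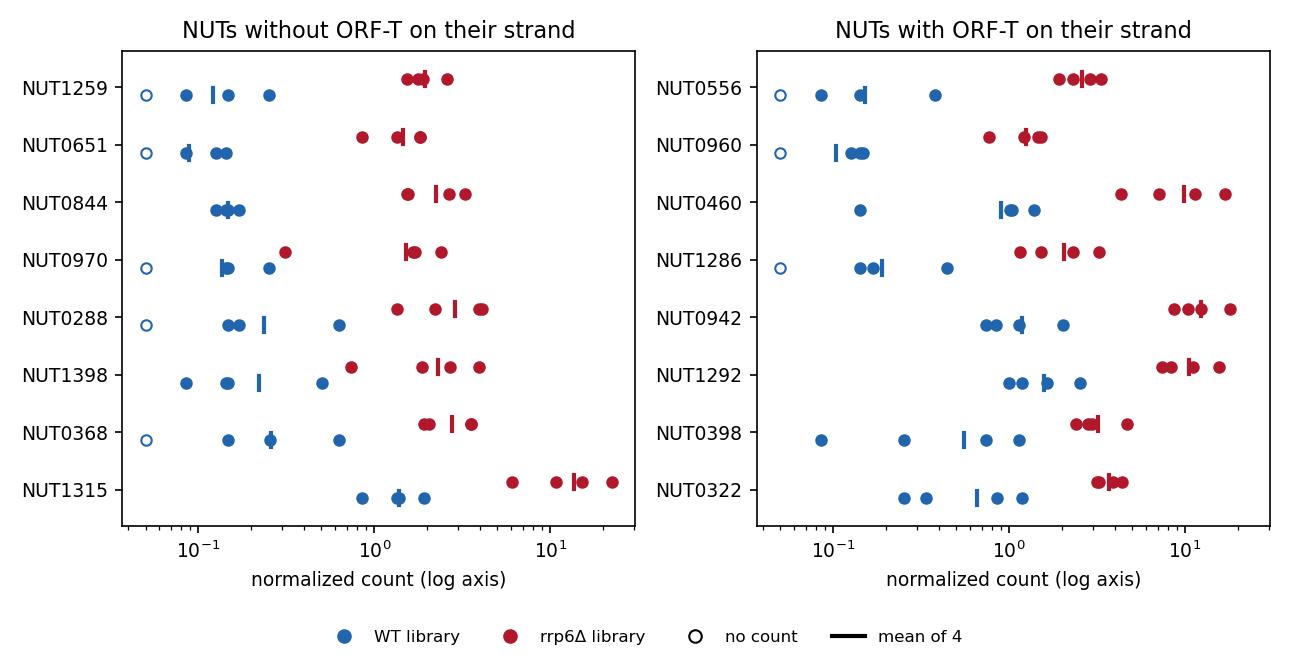
Normalized counts per library (log axis) of the 8 largest rises among NUTs without an ORF-T (left) and with one (right), for 4 WT and 4 *rrp6Δ* libraries. Vertical bars are means of 4, and open circles at the left edge are libraries with no count. In every NUT shown the *rrp6Δ* libraries lie above the WT libraries, as the choice of these NUTs required.

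The NUTs with the highest WT level per kilobase among those free of ORF-Ts were not called. NUT1427 (chrXV:592854-594407, minus strand) was read 1376, 987, 1251 and 655 times in the WT libraries and 1650, 1000, 1045 and 1345 times in *rrp6Δ*, and the normalized counts of the strains overlapped. Its level per kilobase was 83.5 normalized counts in WT, and it covers *LSC1*, which encodes a subunit of succinyl-CoA ligase, from the other strand. Its log2 fold change was -0.33 ± 0.24 (SE, edgeR, adjusted p = 0.299). The methods describe a mapping that discarded tRNA reads and one that kept them, and the part of the tRNA bases in the counts of NUT1427 was not tested.

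NUT1187 (chrX:472047-472487, minus strand) reaches 25 bases into the long terminal repeat of a Ty1 retrotransposon on the other strand, and was at 20.7 normalized counts per kilobase in WT and 23.1 in *rrp6Δ*. NUT1242 (chrXI:650001-650322, minus strand) meets the 3′ end of *FLO10*, a cell wall flocculin gene, from the other strand. WT libraries held 67, 56, 53 and 19 of its reads, against 160, 108, 135 and 71 for *rrp6Δ*, and its log2 fold change was 0.71 ± 0.32 (SE, edgeR, adjusted p = 0.12). With the replicate number as a block it was called up-regulated at 0.75 with an adjusted p of 0.0121. In edgeR, ORF-T scaling (1.02, adjusted p = 0.04) and library totals (1.12, adjusted p = 0.0172) gave the call as well. So did DESeq2 (0.73, adjusted p = 0.0737), while edgeR's exact test did not (0.71, adjusted p = 0.111). NUT1242 is also the NUT nearest to an excluded class, at 14 bases from it.

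The largest rises among NUTs with an ORF-T were found mostly where little of the NUT is shared or where the ORF-T is not in RefSeq. NUT0556 (chrXII:1026761-1028368, plus strand) shares 2.24% of its bases with the 3′ end of *NGK1*, a sugar kinase gene, and lies opposite *VMA6*, which encodes a subunit of the vacuolar ATPase. WT libraries held 1, 3, 0 and 1 of its reads, against 38, 32, 38 and 20 for *rrp6Δ*, a log2 fold change of 4.01 ± 0.57 (SE, edgeR, adjusted p = 0.000465). This was the largest of all 570. *NGK1* changed by -0.36 and *VMA6* by -0.48, and neither was called.

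NUT0960 (chrV:116086-117579, minus strand) holds the whole of YEL020C-B, which RefSeq does not list, and lies opposite *URA3* and *TIM9*. Its counts were 0, 1, 1 and 1 in WT and 25, 14, 16 and 8 in *rrp6Δ*, a ratio of counts per library size of 14.2 with an exact 95% interval of 4.63 to 70.6, which also covers counting error only. YEL020C-B was at 0 in each WT library, and its *rrp6Δ* counts were 19, 11, 12 and 7. *URA3* encodes a pyrimidine biosynthesis enzyme and is deleted in BY4741 by background knowledge, yet its row had between 49 and 103 counts in the 8 libraries. That row shares bases with *TIM9* on the same strand, and the origin of its reads was not tested. NUT0960 spans all of the *URA3* row from the other strand, and how much of its length exists in these strains was not tested. YEL020C-B made up 77.8% of the *rrp6Δ* counts of NUT0960.

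NUT0460 (chrXI:382680-384830, plus strand) shares 4.14% of its bases with the dubious open reading frame YKL030W and lies opposite *MAE1*, the mitochondrial malic enzyme. WT libraries held 12, 11, 7 and 1 of its reads, against 276, 68, 150 and 45 for *rrp6Δ*, a log2 fold change of 3.43 ± 0.54 (SE, edgeR, adjusted p = 0.000789). NUT0942 (chrIV:1321353-1321976, minus strand) shares 57.1% with YDR426C and lies opposite *SNX41*, a sorting nexin. WT libraries held 10, 16, 5 and 8 of its reads, against 141, 119, 240 and 108 for *rrp6Δ*, a log2 fold change of 3.38 ± 0.38 (SE, edgeR, adjusted p = 0.000125).

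NUT1286 shares 53.5% of its bases with YML094C-A and lies opposite *GIM5*, a prefoldin subunit, with a log2 fold change of 3.42. NUT1292 holds YML012C-A opposite *UBX2*, a membrane protein of protein quality control, and rose by 2.75. NUT0398 and NUT0322, which share bases with YJL067W and YHL019W-A, rose by 2.63 and 2.54. Their opposite ORF-Ts, *MPM1* and *DLS1* for NUT0398 and *APM2* for NUT0322, were not called. Of the ORF-Ts that share bases with these 8 NUTs, all but *NGK1* were called up-regulated.

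Only 4 NUTs were called down-regulated, each together with the ORF-T on its strand. NUT0782 (chrXVI:373609-375452, plus strand) holds the whole of *SSU1*, a sulfite pump of the plasma membrane. Its counts were 907, 463, 384 and 661 in WT and 664, 214, 385 and 405 in *rrp6Δ*, and after normalization each *rrp6Δ* library was below each WT library. The log2 fold change was -1.13 ± 0.24 (SE, edgeR, adjusted p = 0.0044), next to -1.14 for *SSU1*, whose counts were 99.7% of those of the NUT in WT. Both were also called with either other scaling.

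NUT0103 (chrIV:322672-323521, plus strand) starts within *RPL31A*, a gene of the large ribosomal subunit with a paralog, and runs past its 3′ end. WT libraries held 924, 624, 758 and 838 of its reads, against 775, 351, 753 and 681 for *rrp6Δ*, a log2 fold change of -0.92 ± 0.23 (SE, edgeR, adjusted p = 0.00995). It was called with ORF-T scaling at -0.62, and not with library totals at -0.56. *RPL31A* changed by -0.80 and was called down-regulated, but not with ORF-T scaling, at -0.50 (edgeR, adjusted p = 0.107). NUT0830 shares bases with *MAP2*, a methionine aminopeptidase gene, and NUT1304 with *YPK2*, a protein kinase gene. Both were named after their values were seen. Their log2 fold changes were -0.69 and -0.64, their libraries overlapped between strains, and neither was called with ORF-T scaling or library totals. *MAP2* and *YPK2* were not called with those scalings either. With the replicate block 9 of the 181 NUTs were called down-regulated in place of 4.

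The change of a NUT fell with the share of its bases that lies in ORF-Ts. Where 10% or less was shared, 30 of 45 NUTs were up-regulated (66.7%), close to the 68.1% of NUTs with no shared base. Between 10% and 50% the number was 27 of 54, between 50% and 90% it was 11 of 46 (23.9%), and above 90% it was 4 of 36 (11.1%). Median log2 fold changes in the same order were 1.22, 0.76, 0.22 and 0.15, and median WT levels per kilobase were 1.13, 2.13, 4.59 and 9.99 normalized counts. Across the 181 NUTs, Spearman's rho of the shared percentage with the log2 fold change was -0.49 and Pearson's r -0.45. The points share libraries and, at high percentages, the reads of the mRNA itself.

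**Figure D3:**
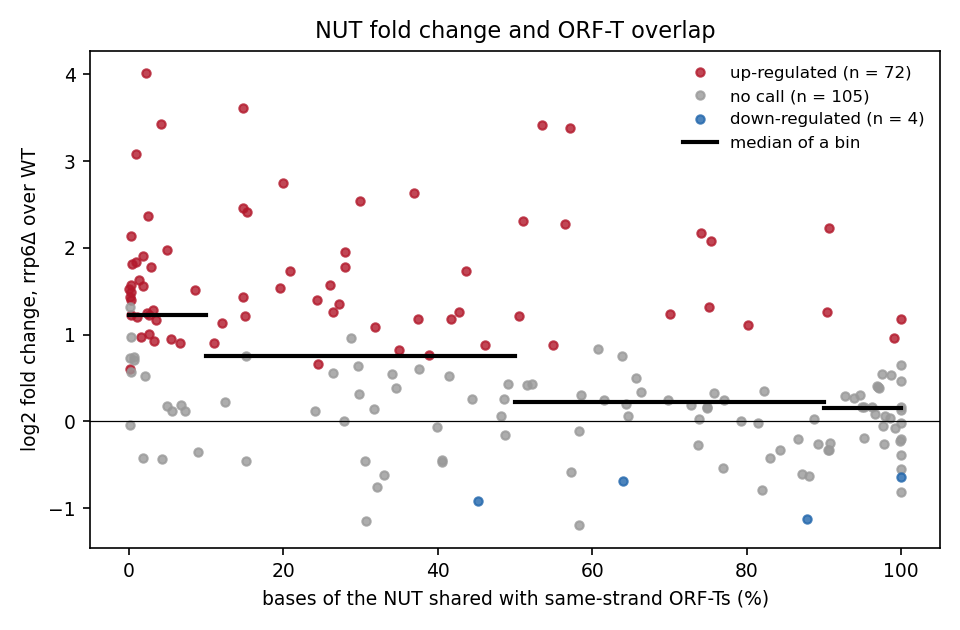
Log2 fold change of *rrp6Δ* over WT against the bases of the NUT shared with same-strand ORF-Ts (%), for 181 NUTs, coloured by call. Horizontal bars are medians of the 4 bins, which step down from 1.22 to 0.15.

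Of the NUTs with more than 90% shared, 4 were up-regulated, each with its ORF-T, and they are named after their values were seen. NUT0379 holds *RPS14B*, a gene of the small ribosomal subunit. WT libraries held 739, 889, 514 and 334 of its reads, against 3100, 1686, 2795 and 1435 for *rrp6Δ*, with log2 fold changes of 1.26 for the NUT and 1.25 for *RPS14B*. NUT0009, NUT0858 and NUT1018 share bases with YAR073W, *FRM2* and *TOS3*, and their log2 fold changes were 2.23, 1.18 and 0.96. *RPS14B* has a close paralog and YAR073W is a near copy of part of the *IMD* genes, so their reads could be split between copies.

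Whether the ORF-T belongs to RefSeq separated the NUTs as well. Of the 151 NUTs whose main ORF-T is in RefSeq, 49 were up-regulated and 4 down-regulated, with a group median of 0.31 on the log2 scale. Of the 30 whose main ORF-T is not in RefSeq, 23 were up-regulated and 0 down-regulated (0 of them lower at an unadjusted p under 0.05), with a median of 1.74. ORF-Ts outside RefSeq were called up-regulated in 49 of 223 cases over the whole table (22.0%), and in 26 of 38 among those that share bases with these NUTs. With only RefSeq ORF-Ts counted, the bins of shared bases still held 25 of 40, 15 of 37, 6 of 39 and 3 of 35 up-regulated NUTs.

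The position of the NUT on its ORF-T differed between calls. Of 38 NUTs that start within an ORF-T and run past its 3′ end, 23 were up-regulated, with a group median of 0.99 on the log2 scale. Those NUTs share a median of 3.83% of their bases. Of 68 that start upstream and end within the ORF-T 23 were up-regulated, with a median of 0.33, and of 67 that hold a whole ORF-T 25 were, with a median of 0.40. Of the 8 that lie within an ORF-T, 1 was up-regulated. Position and shared percentage go together, and their parts were not separated.

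The calls of a NUT and its main ORF-T were compared pair by pair, as a description, since the pair shares reads. Both were up-regulated in 34 of the 181 pairs and both were down-regulated in 4. The NUT alone was up-regulated in 38, and in 1 of these the ORF-T was down-regulated. That pair is NUT0474 and *ECM4*, a glutathione transferase gene, named after the values were seen. NUT0474 starts upstream and shares 26.5% of its bases. WT libraries held 18, 29, 8 and 9 of its reads, against 63, 52, 56 and 53 for *rrp6Δ*, a log2 fold change of 1.27 against -1.17 for *ECM4*. With ORF-T scaling *ECM4* changed by -0.87 and was not called. The reverse, an ORF-T called up-regulated without its NUT, was seen once, for *SMK1* and NUT0799, with 1.34 for *SMK1* and 0.32 for the NUT. Whole ORF-Ts held by NUT0799 made up 85.1% of its counts in WT and 67.5% in *rrp6Δ*. The part of *SMK1* in those counts was not separated. The NUT had the higher log2 fold change in 138 of the 181 pairs.

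**Figure D4:**
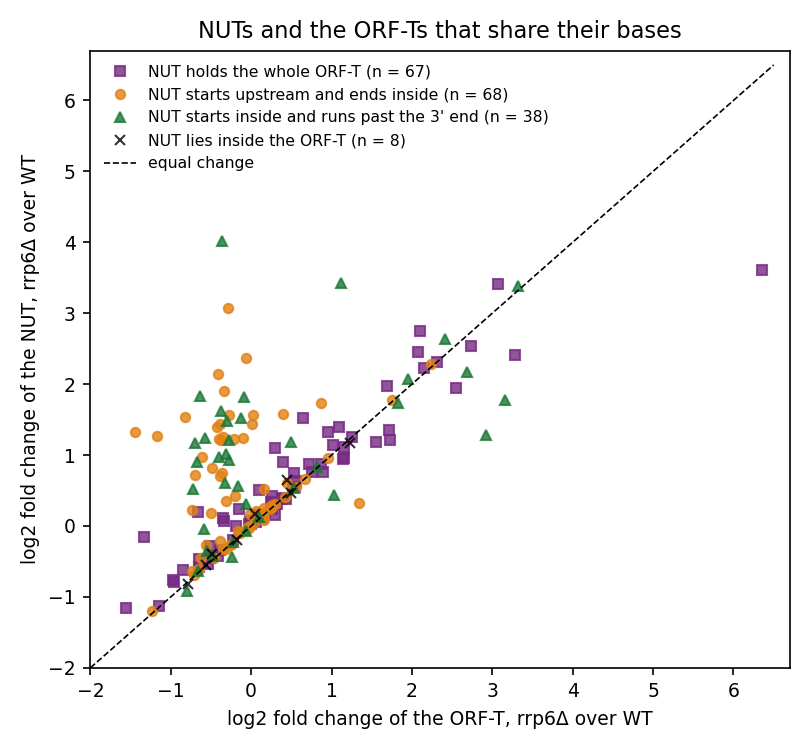
Log2 fold change of each NUT against that of the ORF-T that shares most of its bases, for 181 pairs, marked by the position of the NUT. The dashed line is equal change, and 138 of the 181 NUTs lie above it.

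For 69 NUTs that hold at least 1 whole ORF-T, the counts of the ORF-T could be taken off. The ORF-T made up a median of 80.5% of the counts of the NUT in WT and 70.9% in *rrp6Δ*, and its share was lower in *rrp6Δ* in 49 of the 69. The counts left gave a median log2 fold change of 0.90, against 0.39 for all counts of the same NUTs. Up-regulated were 27 after the subtraction and 25 before, of which 16 were the same NUTs, and down-regulated 0 and 1. Among the 11 called only after the subtraction was NUT0841, named after its values were seen, whose remaining counts rose from 48 in the WT libraries together to 359 in *rrp6Δ*. The subtraction set 11 values below 0 to 0.

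Of the NUTs with an ORF-T, 4 share bases with genes known for early or alternative termination by Nrd1, Nab3 and Sen1. NUT0422 covers nearly all of *URA8*, a CTP synthase gene. NUT0356 covers *IMD2* and NUT0554 the 5′ part of *IMD3*, which are IMP dehydrogenase genes and paralogs that can share reads. Their log2 fold changes were -0.27, 0.40 and -0.27, next to -0.27, 0.40 and -0.56 for the ORF-Ts, and none of the 6 was called. With ORF-T scaling the values of NUT0422 and NUT0554 were 0.04 and 0.05, on the other side of 0. That scaling called NUT0356 up-regulated, at 0.72 (edgeR, adjusted p = 0.0408). With library totals NUT0356 was at 0.72 and not called (edgeR, adjusted p = 0.103). NUT0422 shares 97.8% of its bases, NUT0356 97.0% and NUT0554 89.3%.

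NUT1253 (chrXII:412838-415744, minus strand) differs from these, since it starts near the 3′ end of *TIS11*, which encodes an mRNA-binding protein of the iron response, and shares 6.64% of its bases. WT libraries held 24, 45, 13 and 25 of its reads, against 111, 51, 102 and 49 for *rrp6Δ*, and after normalization the second WT library lay within the *rrp6Δ* range. Its log2 fold change was 0.90 ± 0.37 (SE, edgeR, adjusted p = 0.0859), against -0.67 for *TIS11*, which was not called. The call was lost when WT library 1 or 3 or *rrp6Δ* library 1, 2 or 3 was left out, with adjusted p between 0.11 and 0.204. The other genes of this list share no base with any of the 570. Of the 12, *NRD1* was called up-regulated and *URA2*, which encodes the first enzyme of pyrimidine synthesis, down-regulated at -0.88. Both calls are with TMM over all transcripts, which called 2.09% of ORF-Ts up-regulated and 14.3% down-regulated.

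Among the factors that end or degrade these RNAs, *NRD1* rose by 0.70 ± 0.29 (SE, edgeR, adjusted p = 0.0919), from 153, 191, 93 and 243 reads in the WT libraries to 562, 289, 470 and 403 in those of *rrp6Δ*. *NAB3* had a log2 fold change of -0.61 and *SEN1* of -0.06, and neither was called. The TRAMP subunits *PAP2*, *AIR1*, *AIR2* and *MTR4* and the exosome cofactors *LRP1* and *MPP6* were not called either, with log2 fold changes between -0.39 and 0.26.

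For the 389 NUTs free of ORF-Ts the place of the start was compared. A start was called divergent when an ORF-T begins on the other strand within 500 bases upstream of it. Of 241 divergent starts 172 were up-regulated, with a group median of 1.41 on the log2 scale. Of 67 starts within an opposite ORF-T 45 were up-regulated, with a median of 1.29, and of the 81 other starts 48, with a median of 1.07. Where the NUT overlaps an ORF-T on the other strand 224 of 316 were up-regulated, and where no ORF-T lies on either strand 41 of 73 were. The latter group was also more abundant in WT, at 1.61 normalized counts per kilobase against 0.478.

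Length made little difference to the calls. Split by length into 3 groups from short to long, 85 of 130, 92 of 129 and 88 of 130 were up-regulated, with median lengths of 901, 1623 and 2786 bases. Spearman's rho of length with the log2 fold change was -0.01. The rule did not ask about transcripts restricted by Ssu72 (SRTs), a further class of RNAs annotated in a termination mutant. Of the 28 NUTs that share bases with an SRT on the same strand 25 were up-regulated, with a median of 1.67. Few NUTs touch repeats: 15 of the 389 share bases with a long terminal repeat on the same strand, of which 7 were up-regulated.

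The ORF-Ts on the other strand of these NUTs were set beside all ORF-Ts. Of 417 such ORF-Ts 56 were down-regulated (13.4%), next to 14.3% of all ORF-Ts, and 2 were up-regulated (0.480%), next to 2.09%. Where the NUT crosses the start of the ORF-T 41 of 289 were down-regulated (14.2%), and where it does not 15 of 128 (11.7%). Of ORF-Ts divergent from a NUT 35 of 243 were (14.4%). These numbers depend on the scaling. With TMM factors from ORF-Ts only, 7 of the 417 were up-regulated (1.68%) and 9 down-regulated (2.16%), next to 3.81% and 2.66% of all ORF-Ts. With library totals the numbers were 6 and 6 (1.44% each), next to 3.86% and 1.48%. Under both of these scalings each of the down-regulated ORF-Ts was among the 289 whose start is crossed and 0 were among the other 128. They were 9 (3.11%) and 6 (2.08%) of the 289, near the shares of all ORF-Ts. Where the crossing NUT was itself up-regulated, 5 (2.38%) and 4 (1.90%) of 210 ORF-Ts were down-regulated. With TMM over all transcripts 28 of these 210 were (13.3%). No test was made of the difference between crossed and uncrossed starts.

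Nab3 motifs (TCTT, overlapping matches included) were counted in the first 300 bases on the strand of each transcript and on the other strand, for the 385 NUTs free of ORF-Ts that are long enough. Their mean number was 3.21 ± 2.15 (SD) on their own strand and 1.83 on the other, and 90.9% held at least 1. The 178 NUTs with an ORF-T had a mean of 2.89 on their own strand and 2.46 on the other, and the other NUTs 3.22 and 1.93. The 5676 ORF-Ts had 1.56 on their own strand and 3.42 on the other, and 75.1% held at least 1. The Nrd1 motifs differed less between strands, with means of 2.51 and 2.09 in NUTs free of ORF-Ts and of 1.79 and 2.36 in ORF-Ts. At least 1 was held by 91.7% of these NUTs and 81.5% of ORF-Ts.

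The share of up-regulated NUTs rose with the number of Nab3 motifs. With no motif it was 17 of 35 (48.6%), with 1 or 2 it was 70 of 119 (58.8%), with 3 or 4 it was 97 of 131 (74.0%), and with 5 or more it was 79 of 100 (79.0%). Median log2 fold changes in the same order were 1.11, 1.09, 1.40 and 1.67. Up-regulated NUTs held a mean of 3.52 Nab3 motifs and the others 2.54, while the means of Nrd1 motifs were 2.50 and 2.52. Spearman's rho with the log2 fold change over these 385 NUTs was 0.30 for Nab3 motifs (Pearson's r 0.30), 0.03 for Nrd1 motifs and 0.04 for GC content. For the 178 NUTs with an ORF-T it was 0.06 for Nab3 motifs.

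Because the other strand of ORF-Ts is itself rich in TCTT, the Nab3 motifs were also compared by context. NUTs that overlap an ORF-T on the other strand had a mean of 3.40 and NUTs with no ORF-T on either strand 2.35. Spearman's rho with the log2 fold change was 0.28 in the former (n = 316) and 0.17 in the latter (n = 69). It was 0.30, 0.29 and 0.28 for divergent starts, starts within an opposite ORF-T and other starts. A motif match is a string of letters in a window, and binding of Nab3 was not measured.

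**Figure D5:**
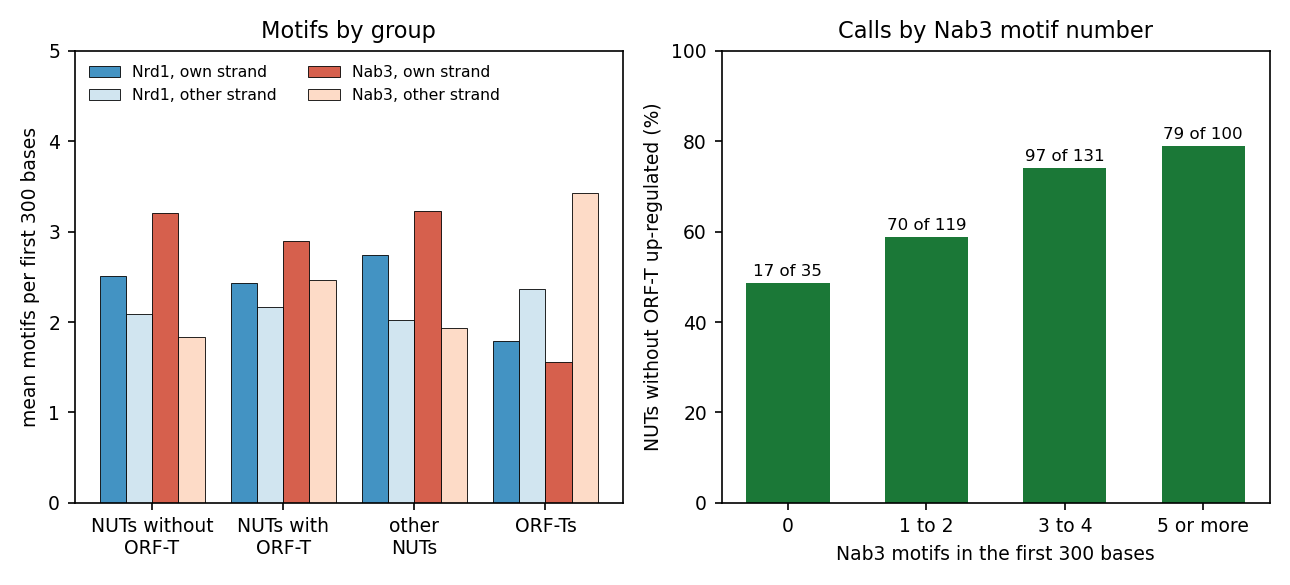
Left, mean number of Nrd1 (GTAA, GTAG) and Nab3 (TCTT) motifs in the first 300 bases on the own and the other strand, for NUTs without and with ORF-T, other NUTs and ORF-Ts. Right, share (%) of NUTs without ORF-T that were up-regulated, by number of Nab3 motifs, from 48.6% with none to 79.0% with 5 or more.

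The rule has sharp edges, since 1 shared base decides. The members nearest to an excluded class were NUT1242, NUT0769 and NUT0598, at 14, 17 and 18 bases, with log2 fold changes of 0.71, 0.38 and 1.34. The NUTs left out with the fewest shared bases were NUT1350, NUT0227 and NUT1203, with 5, 12 and 25 bases and log2 fold changes of 2.47, 0.23 and -1.44. NUT0962, NUT1477 and NUT0573 were placed with the ORF-T group for 1 shared base, and their log2 fold changes were 0.72, 1.44 and 1.52. When a NUT was counted as overlapping only where at least 50% of its bases are shared, the groups held 488 and 82 NUTs, of which 322 and 15 were up-regulated and 1 and 3 down-regulated.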

How the data were processed

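RNA from 4 WT and 4 *rrp6Δ* libraries was rRNA-depleted and sequenced as strand-specific single reads. Per the file headers and methods, the authors mapped reads to sacCer3 with bfast, and counted them with bamutils. The raw count of each transcript in each library, as deposited, was analysed here. Neither the mapping used (with or without tRNA reads) nor the treatment of reads in overlapping annotations is given in the sources used here. The authors also deposited a normalized signal (the count over 1 constant per library), and the log2 fold change, p-value and FDR of their own comparison. None of these was used.

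NUTs were selected by deposited position on chromosome and strand. Coordinates count from 1, since 952 of 958 antisense rows equal a RefSeq ORF. The rule for the NUTs uses positions only, but the rule, the gene lists and the tests were chosen with earlier results of these data known.

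Counts of all 10054 transcripts were fitted with edgeR 4.0.16 in R 4.3.3 (TMM, glmQLFit, glmQLFTest, no filter, Benjamini-Hochberg). The standard error is the log2 fold change over the square root of F. TMM factors lay between 0.735 and 1.37, and 3 counts equal between 0.183 and 0.444 normalized counts. Summaries and motif counts used Python 3.11.15, numpy 2.4.6, pandas 2.3.3 and scipy 1.17.1. Procedures were tested on simulated data.

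NUTs named were, in each group, the 8 largest rises and up to 4 largest falls among called NUTs whose libraries did not overlap between strains, the 3 with the highest WT level per kilobase, and those sharing bases with an early termination gene. Only 2 falls qualified, both with an ORF-T. Since the choice asks for libraries that do not overlap, it fixes the exact permutation p, which is not given.

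Replicate numbers appear to pair the libraries. After removal of strain means, log2 values of libraries with the same number correlated at 0.352 to 0.534, and of other pairs at -0.355 to 0.003. Alternatives were DESeq2 1.42.0, edgeR's exact test, other scalings, filters on low counts, an FDR of 0.05, the replicate block, other overlap limits, SRT overlap left out, and each library left out.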

Additional observations from a re-analysis of the deposited data

Results flagged for a closer look

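In 5 groups of 4 libraries of the NUTs chosen by the naming rule, 1 library lay far from the other 3. This was judged by the gap to its nearest neighbour over the range of the group. WT library 2 of NUT1398 was highest at 0.503 normalized counts, with the next at 0.148. WT library 1 of NUT0960 was lowest at 0, with the next at 0.126. Both NUTs had at most 4 counts in a WT library. WT library 2 of NUT1403, which shares 79.3% of its bases with *IZH2*, a gene of zinc homeostasis, was highest at 227, with the next at 102. *IZH2* itself had 1802 counts in that library. NUT0554, over the start of *IMD3*, had WT library 4 highest at 70.5 (next 46.3) and *rrp6Δ* library 2 highest at 52.8.

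Of the 54 such groups tested, chance alone gives such a gap in about 1 of 20. Over all 570 NUTs 72 of 1140 groups had one. WT libraries 2 and 4 and *rrp6Δ* library 2 held 16 each, *rrp6Δ* libraries 4 and 3 held 11 and 7, and the other libraries 2 each. The cause was not tested.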

How the results depend on the processing

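For NUTs without an ORF-T the number up-regulated was 42 of 74 when at least 10 counts were asked of every library, and 0 were down-regulated except for 1 when only NUTs sharing at least 50% of their bases were set apart. Their median log2 fold change was 1.65 with TMM factors from ORF-Ts only, 1.73 with library totals, 1.02 with at least 10 counts, and 1.69 with the replicate block and TMM factors from ORF-Ts. For NUTs with an ORF-T, 31 of 114 were up-regulated with at least 10 counts and 15 of 82 with at least 50% shared. Down-regulated were 2 with TMM factors from ORF-Ts, with or without the block, with at least 10 counts and with an FDR of 0.05, 1 with library totals, and 9 with the replicate block. Their median was 0.82, 0.87, 0.43 and 0.83 with TMM factors from ORF-Ts, library totals, at least 10 counts, and the block with TMM factors from ORF-Ts.

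Leaving out 1 library gave 219 to 283 up-regulated NUTs without an ORF-T (median 1.31 to 1.47) and 63 to 75 with one (median 0.44 to 0.65), with 2 to 5 down-regulated. It was 2 without WT library 1, WT library 4 or *rrp6Δ* library 1. The replicate block gave 304 and 83 up-regulated NUTs. Over the 27 NUTs chosen by the naming rule, 393 of 414 values kept their call, 15 gained one and 6 lost one. The 15 were values of NUT1242, NUT0356 and NUT0784. NUT0784 shares bases with *RPS9A* and is not described above. It was not called, at 0.53 (edgeR, adjusted p = 0.235). The sign changed in 18 values of 4 NUTs, none of them called before or after: NUT1403 (-0.00044) in 11 with a highest of 0.45, NUT0422 and NUT0554 in 3 each (highest 0.09 and 0.06), and NUT1427 at 0.07 with library totals. The 6 were NUT0103 with library totals and NUT1253 without 5 single libraries. *NRD1*, at an adjusted p of 0.0919, lies close to the limit.

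The step down with shared bases was recomputed, chosen after seeing the data, under 16 settings, and fell at every step in 15. With at least 10 counts the last 2 bins were at 13.9% and 14.3%.

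Depth limits NUTs without an ORF-T most, since few reads fell on each. The cause of the shifts was not tested, except that a filter tests fewer NUTs.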
